A study of Homo sapiens with 9 samples.

Results

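The genes examined here were 9 members of the PI3K, AKT and mTOR pathway: PIK3CA, AKT1, AKT2, MTOR, RPTOR, RICTOR, TSC1, TSC2 and RHEB. They were listed by name as a pathway, with earlier results of these data known but with no measured value in the rule, and are 9 of the 20162 protein-coding genes of the annotation. The mark measured was H3K4me3, trimethylation of histone H3 at lysine 4, which sits at the promoters of active genes. It was mapped by CUT&RUN, in which an antibody tethers a nuclease to the mark inside permeabilised cells and the released fragments are sequenced. All libraries came from HEL cells, a human erythroleukemia line grown in RPMI with fetal bovine serum. The 4 groups were NTC cells (control CRISPR cells, 3 libraries), METTL3-KO (2 libraries), METTL14-KO (2 libraries) and WTAP-KO (2 libraries). METTL3, METTL14 and WTAP are the core subunits of the complex that writes N6-methyladenosine (m6A) on mRNA, and each was knocked out by CRISPR in its group. The labels do not say whether the libraries of a group came from separate cultures, so p-values measure only the spread between these libraries, which may be technical. No transcript was measured in these libraries, and a promoter mark does not check whether a gene was cut, so the knockouts themselves were not checked here.

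In this pathway PI3K, whose catalytic subunit p110-alpha is encoded by PIK3CA, makes the membrane lipid PIP3, which recruits the kinases AKT1 and AKT2. AKT phosphorylates TSC2, which together with TSC1 holds the small GTPase RHEB in its inactive form. Active RHEB switches on the kinase MTOR in complex 1, defined by the scaffold RPTOR, and complex 1 drives protein synthesis. RICTOR defines complex 2, which in turn phosphorylates AKT. In the red cell lineage the pathway acts downstream of the erythropoietin and stem cell factor receptors.

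Each library had its own list of H3K4me3 peaks, with a value in the last column that carries no header. It was read as a signal in coverage units calibrated to a yeast spike-in, from the study's methods and the CUT&RUN protocol they follow, and every signal, percentage and log2 change below rests on that reading. The value of a gene was the largest signal among the peaks no farther than 1 kb from any annotated start of the gene, and 0 where no peak was listed there. NTC libraries held 21724 to 21941 peaks, METTL3-KO libraries 9205 and 9369, METTL14-KO libraries 3169 and 5286, and WTAP-KO libraries 3160 and 3673. The files do not give the sequencing depth. Peak widths ran from 150 to 2000 bp, and peaks of 1500 bp or more made up 12.3% to 13% of the NTC lists and 1.74% to 3.97% of the KO lists. Of 8 erythroid and megakaryocytic genes listed as HEL markers, all had a peak in at least 1 NTC library. Of 7 markers of other cell types, CD3E, CD79A, EPCAM, ALB and NEUROD1 had no peak in any library, while PAX5 and COL1A1 had peaks in all 3 NTC libraries. The summed signal of the HEL markers was 24699 to 34877 in NTC and 45.5 to 9485 in the KO libraries.

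Short stretches of hg19 under the peaks of 4 members show where the mark was kept or lost. Each stretch lies outside annotated exons, where the number of libraries with an overlapping peak was highest for that gene. It is written 5′ to 3′ on the strand of the gene with CG dinucleotides, the sites of DNA methylation, in capitals. PIK3CA is shown because its stretch (chr3:178867031-178867150, plus strand, from 886 to 1005 bp after the canonical start) was covered by a peak in all 9 libraries. MTOR (chr1:11322614-11322733, minus strand, from -125 to -6 bp relative to the start) and TSC2 (chr16:2097868-2097967, plus strand, from -118 to -19 bp relative to the start) were each covered in 5 libraries. RHEB (chr7:151215998-151216117, minus strand, from 864 to 983 bp after the start) was covered in the 3 NTC libraries only.
PIK3CA: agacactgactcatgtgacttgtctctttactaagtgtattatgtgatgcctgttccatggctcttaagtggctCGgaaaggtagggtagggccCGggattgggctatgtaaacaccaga
MTOR: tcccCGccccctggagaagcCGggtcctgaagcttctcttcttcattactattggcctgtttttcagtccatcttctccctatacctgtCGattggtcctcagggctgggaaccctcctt
TSC2: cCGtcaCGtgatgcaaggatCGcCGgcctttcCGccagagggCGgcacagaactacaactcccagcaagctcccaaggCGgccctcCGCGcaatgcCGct
RHEB: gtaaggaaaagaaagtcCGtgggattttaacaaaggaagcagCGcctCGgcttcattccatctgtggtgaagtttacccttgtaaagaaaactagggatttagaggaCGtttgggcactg
The TSC2 stretch held 10 CG in 100 bases, and the other 3 held 2 (PIK3CA), 3 (MTOR) and 4 (RHEB) in 120 bases each.

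In NTC cells 8 of the 9 members carried a promoter peak in all 3 libraries, against 42.1% of all protein-coding genes. The exception was RPTOR, which had a peak in 1 NTC library. In METTL3-KO cells 3 members had a peak in both libraries (PIK3CA, AKT2 and TSC2) and 7 in at least 1. In METTL14-KO cells PIK3CA had a peak in both libraries, and MTOR and TSC2 in 1 of them. In WTAP-KO cells PIK3CA alone had a peak. Of the 8 members with complete NTC marking, METTL3-KO left 2 without any peak, METTL14-KO 5 and WTAP-KO 7. Over the 8495 genes with complete NTC marking the shares left without a peak were 46.3%, 73.3% and 84.9%, so that the members' counts lay within 2 genes of the background. AKT1 and RHEB had no peak in any KO library, as did 45.8% of these genes, and PIK3CA kept a peak in all KO libraries, as did 7.83%. Widening the window to 5 kb changed no group mean of any member.

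**Figure D1:**
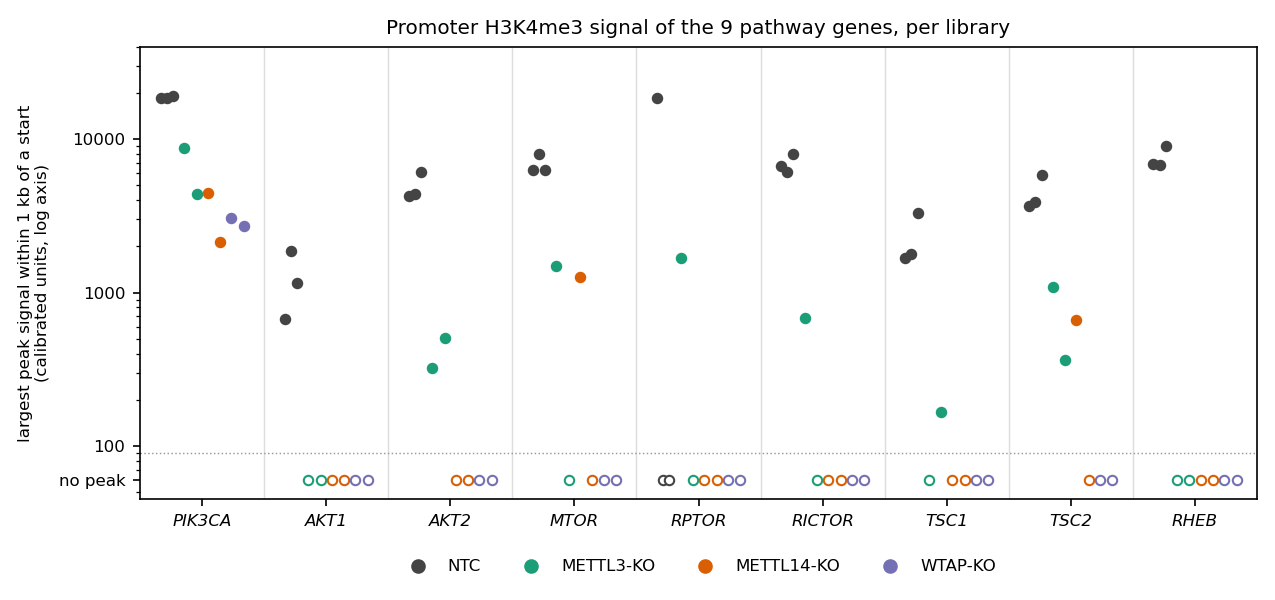
Largest H3K4me3 peak signal within 1 kb of a start (calibrated units, log axis) for the 9 genes, 1 point per library and coloured by group, with open circles on the lowest line for libraries without a peak. PIK3CA is the only gene with a filled point in all 9 libraries, from 18486 to 19064 in NTC and from 2144 to 8755 in the KO libraries.

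PIK3CA (ENSG00000121879, chr3:178865902-178957881, plus strand) was the only one of the 9 genes that kept its mark throughout, and per length of peak it had the strongest NTC mark. Its signal was 18486, 18673 and 19064 in NTC, 8755 and 4368 in METTL3-KO, 4447 and 2144 in METTL14-KO, and 3074 and 2736 in WTAP-KO. Every KO library lay below every NTC library. The group means were 18741 ± 295 (SD, n = 3) in NTC, 6562 ± 3103 (n = 2) in METTL3-KO, 3295 ± 1628 (n = 2) in METTL14-KO and 2905 ± 239 (n = 2) in WTAP-KO, which are 35.0%, 17.6% and 15.5% of the NTC mean. In limma the log2 changes were -1.59 (SE 0.395, adjusted p = 0.0097), -2.59 (adjusted p = 0.00092) and -2.68 (adjusted p = 0.00074). Without METTL3-KO replicate 2 the METTL3-KO change was -1.10 with an adjusted p of 0.07. Scaling each library to the 665 genes with a peak in all 9 libraries, in place of the spike-in alone, turned the change in METTL14-KO to 0.24 (adjusted p = 0.344) and in WTAP-KO to 0.79 (adjusted p = 0.0139). On that scale METTL3-KO gave -0.07 (adjusted p = 0.799), and the median change of all genes over the KO groups moved from -5.30 to -3.62. PIK3CA thus fell on the calibrated scale, while against those 665 genes it was called lower in no KO group and was higher in WTAP-KO. Those genes include PIK3CA and were chosen for a peak in every KO library. This scaling therefore cannot show whether PIK3CA fell.

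The PIK3CA mark was a pair of peaks on either side of the canonical start in all 9 libraries, with shared cores at chr3:178865454-178865889 upstream and chr3:178867031-178867454 downstream. The upstream core lies before the annotated gene, beside the start of the divergent lncRNA PIK3CA-DT, whose promoter signal cannot be told apart from that of PIK3CA in these data. The upstream peak averaged 17427 ± 2353 in NTC (SD, n = 3), 6340 ± 3057 in METTL3-KO (n = 2), 3296 ± 1628 in METTL14-KO (n = 2) and 2905 ± 239 in WTAP-KO (n = 2). The downstream peak averaged 17842 ± 1007, 6562 ± 3102, 2390 ± 856 and 1470 ± 121 in the same order. The largest signal used as the value of PIK3CA was the downstream peak in METTL3-KO and the upstream peak in METTL14-KO and WTAP-KO. In METTL14-KO replicate 2 and both WTAP-KO libraries that upstream peak covered no PIK3CA start and lay 11 to 13 bp from the nearest. Both peaks were narrower in the KO groups. The mean width of the downstream peak was 1644 bp in NTC, 945 bp in METTL3-KO, 540 bp in METTL14-KO and 433 bp in WTAP-KO. Further into the gene, more than 5 kb from any start, each NTC library had 1 weak peak (391, 972 and 1368), and no KO library had one.

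**Figure D2:**
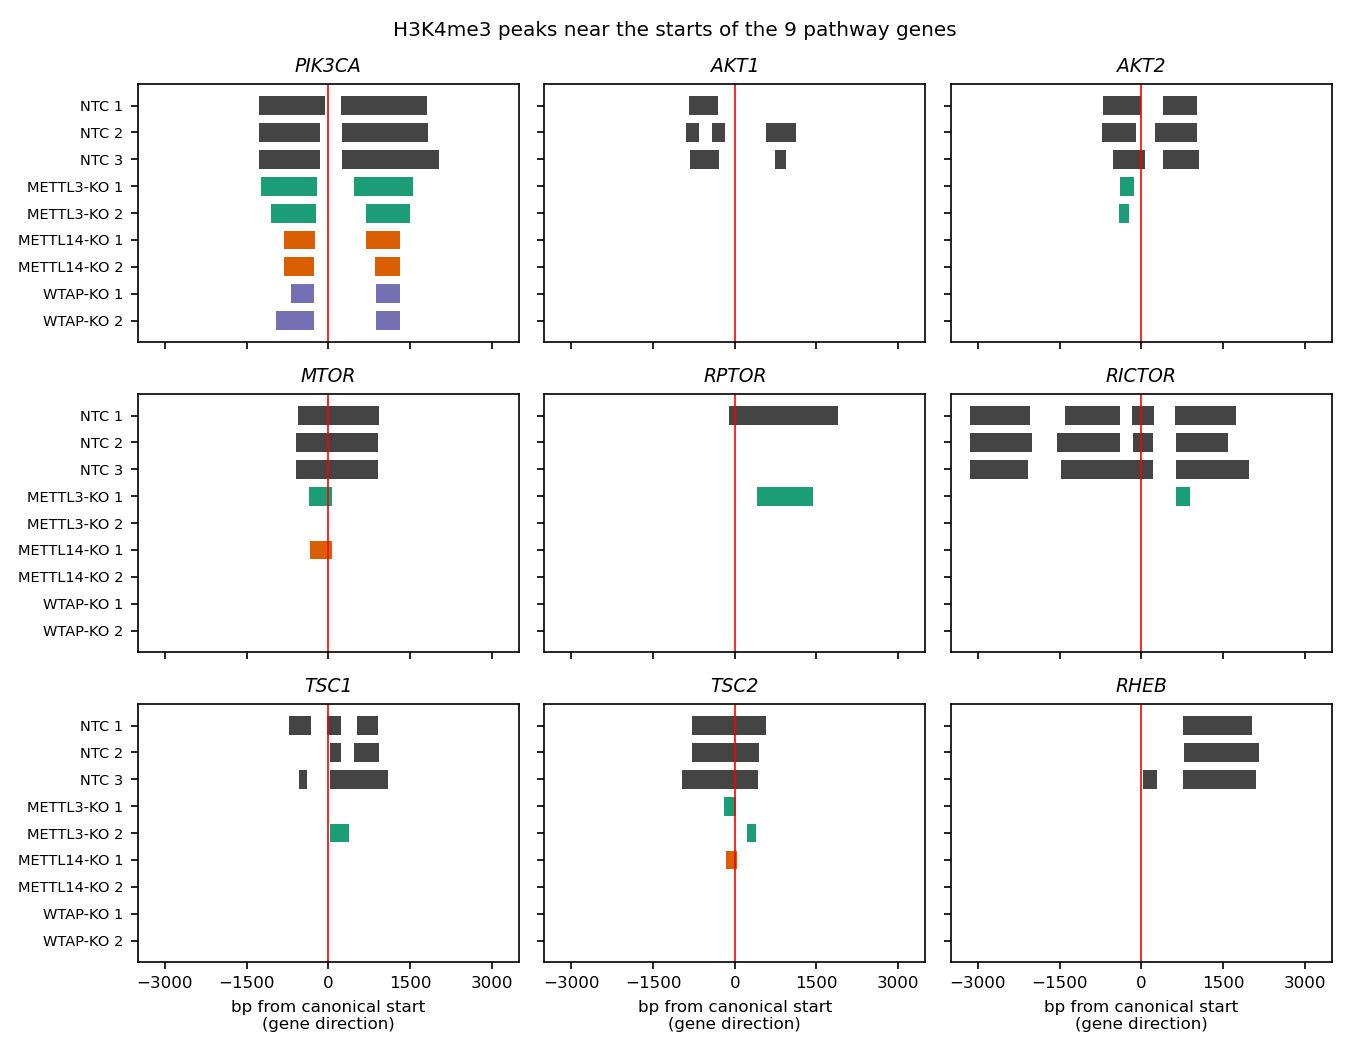
Position of each H3K4me3 peak relative to the canonical start (red line at 0, in bp along the direction of the gene) for the 9 genes, 1 row per library and coloured by group. The pair of PIK3CA peaks is present in all 9 rows and narrows in the KO rows, while the WTAP-KO rows of the other 8 genes are empty.

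AKT1 (chr14:105235686-105262088, minus strand) and AKT2 (chr19:40736224-40791443, minus strand) encode the kinases recruited by PIP3, and they differed in METTL3-KO. AKT1 had 671, 1857 and 1160 in NTC (mean 1229 ± 596, SD, n = 3), and was listed at 0 in all 6 KO libraries. It was called lower in limma for the mean of the KO groups (adjusted p = 4.5e-06), with no fold given because the KO value is 0. For the same reason this p-value does not measure a spread within the KO groups. When only peaks that overlap a start were counted, the AKT1 calls for the single KO groups were lost (adjusted p = 0.0945 to 0.0975). AKT2 had 4262, 4370 and 6080 in NTC (mean 4904 ± 1020, SD, n = 3), 322 and 507 in METTL3-KO (mean 415 ± 131, SD, n = 2) and 0 in the METTL14-KO and WTAP-KO libraries. METTL3-KO thus held 8.5% of the NTC mean, a log2 change of -3.48 (SE 0.277, limma adjusted p = 3.5e-05). The remaining AKT2 peaks in METTL3-KO were 265 and 176 bp wide and lay between -402 and -129 bp of the canonical start. NTC libraries had peaks of 574 to 778 bp on both sides of that start, except that the upstream peak of NTC replicate 3 ran over it (-516 to 57 bp).

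AKT2 was the only member whose difference between METTL3-KO and the average of the other KO groups passed the test, as 29.5% of all genes did in that direction. Its difference was 3.85 on the log2 scale (SE 0.263, limma adjusted p = 9.1e-05), a value set in part by the pseudocount because both other groups were at 0. The call was lost when a peak had to overlap a start (1.77, adjusted p = 0.241), with one METTL3-KO peak 36 bp from the nearest start. With peaks under the NTC median left out the AKT2 difference was 0.0. With all peaks the same difference for PIK3CA was 1.04 (SE 0.375, adjusted p = 0.0891) and for TSC2 3.33 (SE 1.211, adjusted p = 0.0917), neither past the threshold. RICTOR (2.29) and TSC1 (1.35) did not pass either with all libraries in the fit. RICTOR moved to 4.57 without METTL3-KO replicate 2, and TSC1 to 2.70 without METTL3-KO replicate 1. The PIK3CA difference passed with the sum of the peaks (limma adjusted p = 0.0333) and when a peak had to overlap a start (0.0459). It was 1.54 without METTL3-KO replicate 2 and 1.30 without METTL14-KO replicate 1. The TSC2 difference was 4.46 without METTL14-KO replicate 1 and 2.19 without METTL14-KO replicate 2. Whether the differences of PIK3CA, TSC2, RICTOR and TSC1 passed depended on the library left out, and each such fit leaves a lone library in that group.

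MTOR (chr1:11166592-11322613, minus strand), the catalytic subunit of both complexes, had a single broad peak over its start in NTC, with 6353, 8011 and 6298 (mean 6888 ± 974, SD, n = 3) and widths of 1498 to 1521 bp. One METTL3-KO library had 1492 and the other no peak, one METTL14-KO library had 1264 and the other no peak, and neither WTAP-KO library had a peak. Both KO peaks lay inside the NTC peak, 417 and 393 bp wide. No KO library reached an NTC library, but the spread within the KO groups left METTL3-KO (limma adjusted p = 0.0649) and METTL14-KO (adjusted p = 0.0591) short of the threshold, while WTAP-KO passed (adjusted p = 0.0112). The METTL3-KO and METTL14-KO values passed with a pseudocount 10 times larger (adjusted p = 0.0127 and 0.0114), and the WTAP-KO call was lost without either WTAP-KO replicate (adjusted p = 0.0504 and 0.0509).

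RPTOR (chr17:78518619-78940171, plus strand), the scaffold of complex 1, was listed in 1 NTC library only, at 18561, and at 0 in the other NTC libraries. In METTL3-KO it had 1686 in one library and 0 in the other, and it was at 0 in METTL14-KO and WTAP-KO. The NTC peak was 1997 bp wide, 3 bp under the widest width that any list holds, and the METTL3-KO peak was 1015 bp wide. The part of a width limit in the missing NTC peaks was not tested. RPTOR was not called in any comparison (adjusted p = 0.97 in METTL3-KO, 0.397 in METTL14-KO and 0.403 in WTAP-KO), and its METTL3-KO change of -0.17 turned to 2.74 without METTL3-KO replicate 2, 0.37 with a pseudocount 10 times smaller and 0.11 after scaling to the genes marked throughout. RICTOR (chr5:38938022-39074504, minus strand), which defines complex 2, was marked in all NTC libraries with 6671, 6093 and 7998 (mean 6921 ± 977, SD, n = 3). Of the KO libraries only one of METTL3-KO had a RICTOR peak, at 686, a remnant of 253 bp lying 632 to 884 bp after the start. RICTOR was called lower in METTL3-KO (-5.56, SE 1.203, limma adjusted p = 0.00537), METTL14-KO (adjusted p = 0.00093) and WTAP-KO (adjusted p = 0.00089). Each NTC library also had 1 weak peak inside the RICTOR gene (263, 80.9 and 313), and no KO library had one.

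TSC1 (chr9:135766735-135822261, minus strand) and TSC2 (chr16:2097968-2139492, plus strand) encode the complex that restrains RHEB. TSC1 had 1686, 1791 and 3308 in NTC (mean 2262 ± 907, SD, n = 3), 0 and 166 in METTL3-KO, and 0 elsewhere. It was called lower in METTL3-KO (-4.83, SE 0.762, limma adjusted p = 0.00121) and in both other KO groups. TSC2 had 3692, 3908 and 5844 in NTC (mean 4481 ± 1185, SD, n = 3), 1083 and 364 in METTL3-KO (mean 724 ± 509, SD, n = 2), 668 and 0 in METTL14-KO, and 0 in WTAP-KO. The TSC2 mark was thus kept in more KO libraries (3) than that of any other member except PIK3CA. TSC2 was called lower in METTL14-KO (adjusted p = 0.0109) and WTAP-KO (adjusted p = 0.00179) but not in METTL3-KO (-2.74, SE 1.277, adjusted p = 0.093). The METTL3-KO value passed with a pseudocount 10 times larger (adjusted p = 0.00691), and the METTL14-KO call was lost after scaling to the genes marked throughout (-2.88, adjusted p = 0.11) and when a peak had to overlap a start (adjusted p = 0.0519). Peaks of TSC2 shrank from 1235 to 1388 bp in NTC to 173 and 216 bp in METTL3-KO and 200 bp in METTL14-KO. The divergent gene NTHL1, a DNA glycosylase, starts within 1 kb of these TSC2 peaks, and the start of GFI1B, an erythroid repressor, lies within 1 kb of TSC1 peaks, so that their signal is shared with the members. The same holds for the lncRNA ENSG00000289196 at RICTOR in all 4 libraries with a RICTOR peak, and for the protein-coding gene ENSG00000289764 at RPTOR in both libraries with an RPTOR peak.

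RHEB (chr7:151163098-151217206, minus strand), the GTPase that activates complex 1, lost its mark completely in the KO lists while all NTC libraries held it. It had 6914, 6837 and 9080 in NTC (mean 7610 ± 1273, SD, n = 3) and was listed at 0 in all 6 KO libraries. It was called lower in each KO group (limma adjusted p = 7.4e-08) and over the mean of the KO groups (adjusted p = 1.5e-08). With every KO value at 0, these p-values do not measure a spread within the KO groups. The main RHEB peak lay downstream of the canonical start, where the printed stretch falls.

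Across the 9 genes, 6 were called lower in METTL3-KO, 7 in METTL14-KO and 8 in WTAP-KO, and none was called higher. Over the 12037 genes tested the shares called lower were 60.9%, 68.8% and 69.7%. For the mean of the KO groups 8 of 9 members were lower against 73% of all genes, all but RPTOR. The median log2 change of the members was -4.83 in METTL3-KO, -5.27 in METTL14-KO and -7.20 in WTAP-KO, beside -3.48, -5.57 and -5.97 over all genes. The 3 comparisons share the NTC libraries, and values of genes at 0 are fixed by the pseudocount in these medians.

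**Figure D3:**
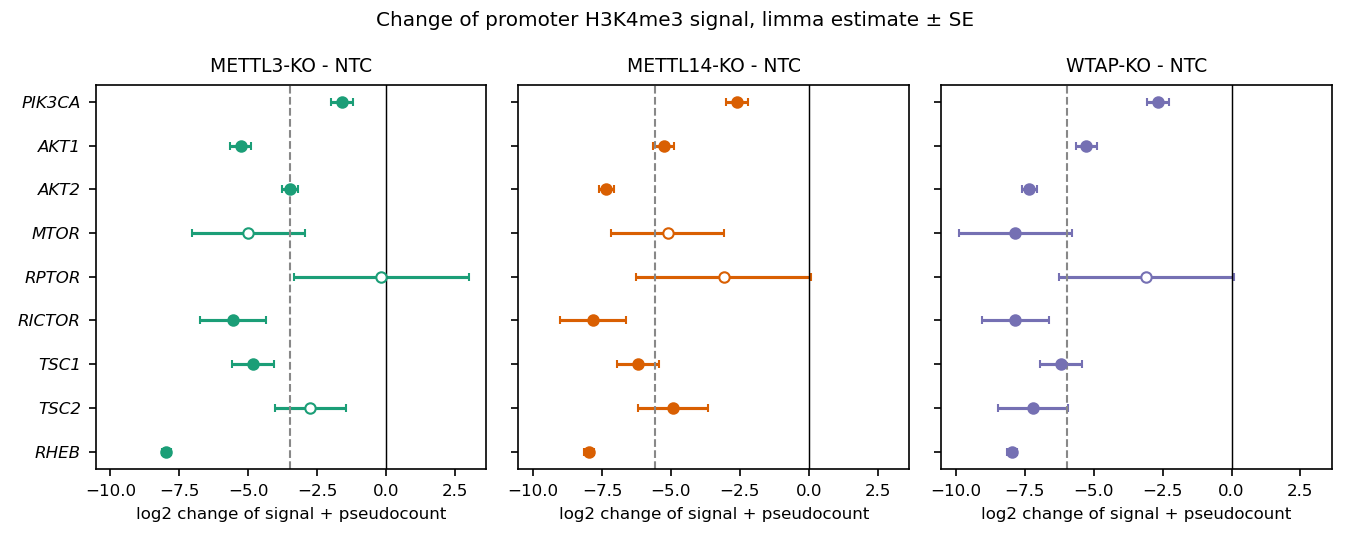
Log2 change of promoter signal plus pseudocount for the 9 genes in each KO group against NTC (limma estimate, bars SE, filled points adjusted p under 0.05), with the median of all genes as a dashed line. PIK3CA lies right of the dashed line in all 3 panels, at -1.59, -2.59 and -2.68, and estimates for genes at 0 in the KO group are set by the pseudocount.

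The members differed in how strongly they were marked per length. Signal per kb of peak width in NTC was highest at PIK3CA (14665 ± 2616, SD, n = 3), followed by RPTOR (9294, 1 library), AKT2 (6961 ± 1962), RHEB (5761 ± 925), RICTOR (5697 ± 864), MTOR (4550 ± 622), TSC1 (3734 ± 581), AKT1 (3470 ± 2247) and TSC2 (3361 ± 770). The NTC libraries of PIK3CA (11781 to 16886) lay above those of all other members, whereas from AKT2 to TSC2 the ranges of neighbours overlapped. In the KO groups the signal per kb of PIK3CA was 6747 ± 1944 in METTL3-KO, 5714 ± 2724 in METTL14-KO and 5480 ± 2222 in WTAP-KO (SD, n = 2 each). For TSC2 the peaks that remained had 2104 and 5014 in METTL3-KO, one below and one above the NTC range of 2709 to 4210, and 3340 in the METTL14-KO library. These values cover only libraries in which a peak was called. Ranked among all marked genes of the same library by largest signal, which is not per length, PIK3CA stood between the 95.5th and 96.8th percentile in NTC, 89.0 and 92.4 in METTL3-KO, 77.3 and 90.5 in METTL14-KO, and 83.8 and 90.2 in WTAP-KO. AKT2 stood at 45.6 to 51.9 in NTC and 6.9 to 26.1 in METTL3-KO.

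The genes with the same pattern of peaks over the 9 libraries were counted for each member. PIK3CA shared its pattern with 664 other genes (3.29% of protein-coding genes), among them STK11, RPS6KB2, GSK3A and FOXO3 of the pathway. AKT1 and RHEB shared theirs with 3892 genes (19.3%), including PDPK1, the kinase that activates AKT, and IRS2, an insulin receptor adaptor. AKT2 shared its pattern with 1175 genes (5.83%), including IGF1R, SGK1 and EIF4E, and TSC2 with 684 (3.39%), including PIK3CD and DDIT4. RICTOR shared its pattern with 582 genes (2.89%), including MLST8, a subunit of both mTOR complexes, and TSC1 with 452 (2.24%). The patterns of MTOR (75 genes) and RPTOR (28 genes, FOXO1 among them) were rarer.

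Promoter sequence was compared over 250 bp before to 50 bp after the canonical start in hg19, with motifs searched on both strands. CG counts ranged from 16 (MTOR and RPTOR) to 49 (AKT1), around a median of 23 over 20140 promoters, and RICTOR held 42. AKT1, which lost its peak in every KO library, stood at the 97.7th percentile of CG count, and PIK3CA, which kept its peak, at the 46.5th. RHEB, which also lost its peak in every KO library, stood at the 59.5th. TSC2, with a peak in 3 KO libraries, stood at the 81.4th. A relation of CG count to the loss of peaks was not tested. The GC box GGGCGG was found in 8 of the 9 members (all but RPTOR) and in 61.0% of all promoters. The ETS core CCGGAAG was found in TSC2, PIK3CA and TSC1 and in 14% of promoters, and the E-box CACGTG in TSC2 and in 8.7%. The TSC2 E-box lies in the stretch printed above. The KLF core CCACACCC (3.3% of promoters) and the GATA core AGATAAG (1.9%) were found in no member. A match is a description of the letters in this window and not a bound site.

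The rest of the pathway was represented by 87 further genes, of which 77 had a peak in at least 2 libraries and were tested. Over the mean of the KO groups 54 were lower, 12 higher and 11 not called, with a median log2 change of -5.31 beside -5.30 over all genes. That is 70.1% lower and 15.6% higher, beside 73% and 14.3% of all genes. The counts by role that follow are a description beside that same background and were not tested against it. The amino acid sensing branch holds activators and inhibitors that control whether mTOR complex 1 goes to the lysosome. It had 17 lower and 1 higher of 22 tested. The class listed as substrates of AKT or mTOR also holds targets further downstream, such as RPS6 and EIF4E. In that class 11 of 17 were lower and 3 higher, and among the other PI3K subunits 6 of 10 were lower and 4 higher. All 3 other AKT-level kinases tested were lower. With complete NTC marking there were 53 pathway genes, of which 18 lacked a peak in every KO library and 4 had one in all of them, beside 45.8% and 7.83% of all genes so marked.

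**Figure D4:**
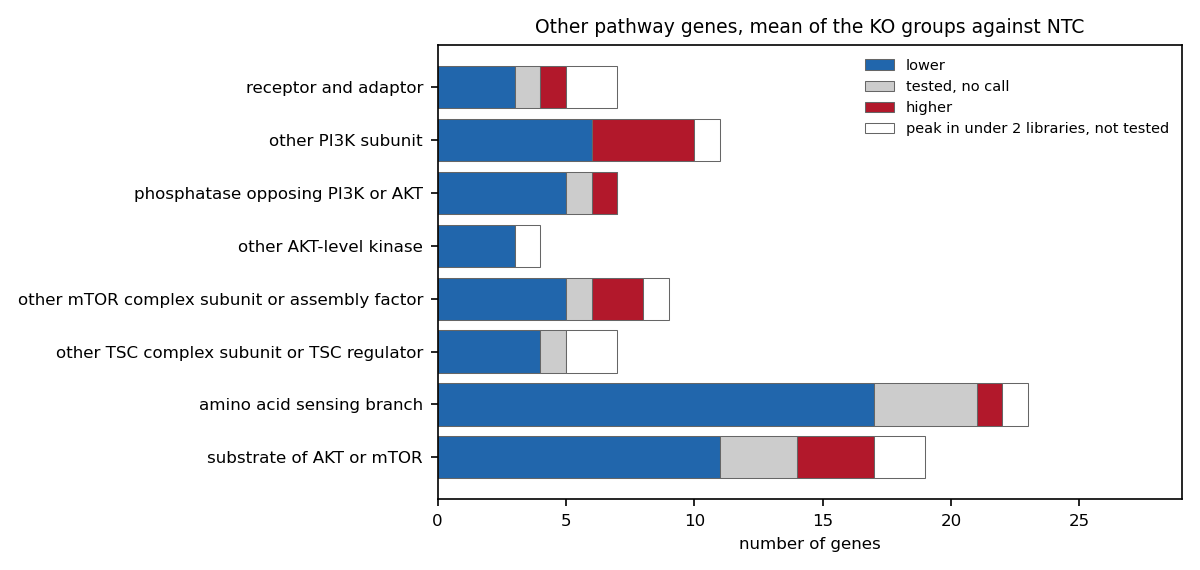
Number of the 87 other pathway genes, by role, called lower, called higher, tested without a call, or not tested, for the mean of the KO groups against NTC. Lower calls outnumber higher calls in every role, with 17 against 1 in the amino acid sensing branch and 6 against 4 among the other PI3K subunits.

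The 4 pathway genes marked in all libraries besides PIK3CA were STK11, FOXO3, RPS6KB2 and GSK3A. STK11, the kinase LKB1 upstream of AMPK, had 15116 ± 1508 in NTC (SD, n = 3) and 78.2 to 3444 in the KO libraries. FOXO3, a transcription factor held in the cytoplasm by AKT, had 12337 ± 1903 in NTC and 236 to 3427 in the KO libraries. RPS6KB2, a ribosomal S6 kinase, had 9548 ± 797 in NTC and 395 to 3024 in the KO libraries. These 3 genes were called lower, although the RPS6KB2 change moved from -2.87 to -0.29 (adjusted p = 0.41) after scaling to the genes marked throughout. GSK3A, a kinase inhibited by AKT, was not called (-1.20, SE 0.543, limma adjusted p = 0.0762), with 5292 ± 539 in NTC and 322 to 7225 in the KO libraries, and its change turned to 1.38 (adjusted p = 0.015) after scaling to the genes marked throughout. The other way, GSK3A passed as lower when a peak had to overlap a start (-5.74, adjusted p = 5.9e-07), in the 5 kb window (-1.05, 0.0492) and without WTAP-KO replicate 2 (-1.56, 0.0111), and it was called lower in WTAP-KO alone (-2.85, 0.00858). Of the 77 pathway genes tested, 21 were lower without any KO peak, in a set not limited to complete NTC marking. The share over all genes was not counted for this definition of these 21 genes. Those with the highest NTC signal were FNIP1, a folliculin partner (9367 ± 5871), INPP5D, the phosphatase SHIP1 (6236 ± 2615), LAMTOR4, a Ragulator subunit (5840 ± 1257), PIK3C2B (5625 ± 766) and EIF4EBP2, an inhibitor of translation initiation (5554 ± 4811, with a peak in 2 of 3 NTC libraries). The EIF4EBP2 call was lost without any 1 KO library (adjusted p = 0.064 to 0.0671) and with the replicate block (0.135).

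The 12 pathway genes called higher, a direction shared by 14.3% of all genes, had no promoter peak in any NTC library. They passed the filter of a peak in at least 2 libraries only through the KO libraries. With NTC at 0, the pseudocount sets part of the change at each of these genes. Those reported by name are the adaptor GAB1, the PI3K subunits PIK3CG, PIK3R3, PIK3R4 and PIK3C2A, the mTOR assembly factors TTI1 and TTI2, LAMTOR1 of the Ragulator, and the downstream targets RPS6KB1, RPS6 and EIF4EBP1. By group, 12 pathway genes were higher in METTL3-KO, 7 in METTL14-KO and 6 in WTAP-KO. In the same order these were 15.6%, 9.1% and 7.8% of the pathway genes tested, beside 14%, 8.4% and 6.8% of all genes. PIK3CG had peaks only in METTL3-KO (2309 and 1182), and PIK3C2A, RPS6KB1, EIF4EBP1 and LAMTOR1 were not called in METTL14-KO or WTAP-KO. TTI1 had 16259 and 14035 in METTL3-KO, 9443 and 4155 in METTL14-KO, and 7885 and 10326 in WTAP-KO. RPS6, a ribosomal protein, had 2136 to 7099 over the KO libraries. Within 5 kb of a start, NTC peaks were listed among these named genes for TTI1 (1756) and EIF4EBP1 (165), in 1 library each, and in that window the EIF4EBP1 call was lost (1.77, adjusted p = 0.174). The METTL3-KO peaks at these 12 genes had a median width of 987 bp, against 521 bp at the other pathway genes and 311 bp at the 9 members. In the same order the medians were 415, 309 and 479 bp in METTL14-KO, and 405, 335 and 568 bp in WTAP-KO. The order against the members was thus reversed in those groups, where the members had 4 and 2 such peaks. The NTC lists held no peak over 2000 bp, as at RPTOR, and the part of peak width in the missing NTC peaks was not tested. The calls of RPS6KB1, EIF4EBP1 and LAMTOR1 were lost in several leave-one-out fits (adjusted p up to 0.106, 0.0838 and 0.0635). The PIK3R3 call was lost when a peak had to overlap a start (adjusted p = 0.0515) and with peaks under the NTC median left out (0.0511), and that of TTI2 in the latter (0.0501).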

How the data were processed

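H3K4me3 CUT&RUN peak lists of 9 HEL libraries were analysed. Per the labels and methods, the authors aligned reads with Bowtie to hg19 and to the spike-in yeast genome sacCer3, removed duplicates with Picard, calibrated by the spike-in and called peaks per library by height (versions not given in the sources used here). The deposited value column has no header, and it was read as this calibrated coverage signal. Starts were read as counted from 0. Depth is not given. GENCODE v44 lifted to hg19 gave the gene starts, and all 25 chromosome names were found in the reference. Log2(signal + 30.105), the pseudocount being the smallest promoter signal, was fitted with limma 3.58.1 (trend, R 4.3.3) over the 12037 protein-coding genes with a peak in at least 2 libraries, with 4 groups in 1 model and Benjamini-Hochberg adjustment at 0.05. This scale understates changes of weak genes. The step was tested on simulated data without missing peaks, so that test does not cover genes listed at 0. The members and lists were chosen with earlier results of these data known. Further pathway genes were named where called higher, marked in all 9 libraries, or among the 5 strongest in NTC of those lower without a KO peak, and not all of these are reported here by name. Alternatives were the pseudocount, gene filter, window, overlap, starts, peak sum, peak threshold, centring, replicate block and leaving out each library. Same-numbered libraries did not deviate together (correlations -0.0578 to 0.095), so the numbers were not taken to pair them.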

Additional observations from a re-analysis of the deposited data

Results flagged for a closer look

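AKT2 differed between the KO groups. Its promoter signal in METTL3-KO exceeded the average of the other KO groups by 3.85 on the log2 scale in limma (adjusted p = 9.1e-05), with a peak in both METTL3-KO libraries and none in the other 4 KO libraries. The value is set in part by the pseudocount. The call was lost when a peak had to overlap a start (1.77, adjusted p = 0.241). With peaks under the NTC median left out the difference was 0.0. Over all genes 3552 of 12037 were higher in the same comparison.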

How the results depend on the processing

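Of the counts of members and pathway genes, 195 alternative values stayed within 1.5 times the reported count and 10 did not. The count of members called in METTL3-KO against the other KO groups (1) was 2 with the sum of the peaks and 0 with peaks under the NTC median left out, and 1 to 3 leaving out each library. The count with a peak in every METTL3-KO library (3) was 1 when a peak had to overlap a start and 1 at the median threshold, and 4 to 6 leaving out each METTL3-KO library, and for METTL14-KO (1) it was 1 to 3 leaving out each of its libraries. After centring, PIK3CA changed to 0.24 in METTL14-KO, 0.79 in WTAP-KO, 0.32 over the KO groups (adjusted p = 0.112) and -0.58 for METTL3-KO against the other KO groups, and GSK3A to 1.38. RPTOR in METTL3-KO reversed to 0.37 with 0.1 times the pseudocount, 0.11 after centring and 2.74 without METTL3-KO replicate 2 (-1.72 to 2.74 leaving out each library), and MTOR in METTL3-KO against the other KO groups to -1.36 without METTL3-KO replicate 1 (-1.36 to 4.30 leaving out each library). The causes were not tested. With the replicate number as a block, 6, 7 and 8 members were lower in the METTL3-KO, METTL14-KO and WTAP-KO groups, and 8600 of all genes were lower over the KO groups. The block ended the calls of LAMTOR1 (2.22, adjusted p = 0.0945), RPS6KB1 (3.13, 0.108), EIF4EBP1 (2.67, 0.0813) and EIF4EBP2 (-4.07, 0.135). A KO group has 2 libraries, and where 1 was left out the lone library was assumed to vary like the other groups. A gene without a listed peak has no measured level below the threshold. Where every library of a KO group was at 0, the p-value measures no spread within that group.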
